A study of Mus musculus with 18 samples.

Results

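The levels of 8 long noncoding RNAs were followed in mouse embryonic stem cells (ESCs): Neat1, Malat1, Lncenc1, Tug1, Gas5, Snhg3, 1110002J07Rik and 0610043K17Rik. All 8 were found, by Ensembl identifier, among the 53801 genes of the deposited count table. The 8 genes were chosen by name with earlier results of these data known, and 1110002J07Rik was selected on its low level after exit from naive pluripotency and in iEZR_CA ESCs. RNA sequencing had been performed on WT cells, given as the E14TG2a line, and on iEZR_CA cells, an E14 line in which doxycycline switches on a constitutively active, phosphomimetic form of ezrin, a protein that tethers the plasma membrane to the actin cortex. Both lines were taken in 2i+LIF, the medium of naive ESCs (ESC, 0 h), and after 24 h (T24) or 48 h (T48) in N2B27 alone. Each of the 6 groups held 3 biological replicates, and all 18 libraries were made from poly(A) RNA. The iEZR_CA line was derived from E14 cells with a PiggyBac system. Doxycycline was given to iEZR_CA cells and is not stated for WT cells. Effects of active ezrin, of doxycycline and of any other difference of the derived line thus cannot be told apart in any comparison of the lines. Between 10940752 and 33276622 reads per library were counted on genes. Normalized counts are these counts divided by the DESeq2 size factor of the library, and fold changes between groups come from edgeR's quasi-likelihood test on the counts of all 18 libraries, with Benjamini-Hochberg adjustment over the 18469 genes that passed the filter on low counts and a threshold of 0.05.

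Long noncoding RNAs are transcribed and processed much like messenger RNAs but are not known to be translated into proteins of their own. Some are found in nuclear bodies: Neat1 is a scaffold that holds together paraspeckles, bodies of RNA-binding proteins, and Malat1 collects in nuclear speckles, which store splicing factors. Others are hosts that carry small nucleolar RNAs (snoRNAs) in their introns, as Gas5 and Snhg3 do, and others, such as Lncenc1, are known for being abundant in naive ESCs. In libraries of mixed molecules like these, fewer cells that make an RNA and less of that RNA in each cell cannot be told apart.

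Because the libraries were made from poly(A) RNA, the ends of the transcripts bear on what could be counted. Neat1 has a short isoform of 3004 bases and a long one of 20771 bases that share their start, and the counts do not separate them. The long isoform of Neat1 and the abundant form of Malat1 are known to end in an A-rich stretch of the genome rather than in an added poly(A) tail. The last 30 bases of 5 annotated transcripts (GENCODE M21, build GRCm38) are shown 5′ to 3′, with the polyadenylation signal AATAAA in capitals where it occurs.
Neat1-202, the short isoform (chr19:5842307-5842336, minus strand): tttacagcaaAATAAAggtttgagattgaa
Neat1-201, the long isoform (chr19:5824708-5824737, minus strand): gagaacgaacgtgagcaggaaaaagcaaaa
Malat1-201 (chr19:5795690-5795719, minus strand): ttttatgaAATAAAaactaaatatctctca
Lncenc1-201 (chr13:97496978-97497007, plus strand): ttggtggAATAAAtacatcaatatgtggaa
1110002J07Rik-201 (chr10:66912489-66912518, minus strand): gttgggggAATAAAttacataggaatttgg
The signal starts 20 bases from the end of the short Neat1 isoform and 22 or 23 bases from the end of the other 3 transcripts that hold it, and these letters do not occur in the last 30 bases of the long Neat1 isoform.

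Promoter sequences, 250 bases before to 50 bases after an annotated start, were taken from RefSeq (GRCm38.p6) and were found for 6 of the 8 genes; Neat1 and 0610043K17Rik had no entry. They are shown for Lncenc1 and 1110002J07Rik, 2 RNAs of ESCs, and for Gas5, whose second annotated start carries a motif match.
Lncenc1 (chr13:97434720-97435019, plus strand): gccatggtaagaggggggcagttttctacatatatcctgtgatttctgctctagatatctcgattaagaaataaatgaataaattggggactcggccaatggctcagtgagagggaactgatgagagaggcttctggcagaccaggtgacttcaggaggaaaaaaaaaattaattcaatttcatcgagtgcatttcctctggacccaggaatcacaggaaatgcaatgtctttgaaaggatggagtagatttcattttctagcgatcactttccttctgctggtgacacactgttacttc
1110002J07Rik (chr10:66920335-66920634, minus strand): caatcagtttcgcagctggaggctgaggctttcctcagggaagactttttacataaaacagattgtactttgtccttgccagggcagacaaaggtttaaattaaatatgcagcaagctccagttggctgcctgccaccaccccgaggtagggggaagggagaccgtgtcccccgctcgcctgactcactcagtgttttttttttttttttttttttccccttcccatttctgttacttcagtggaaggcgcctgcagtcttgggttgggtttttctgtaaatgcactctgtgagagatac
Gas5, second start (chr1:161034916-161035215, plus strand): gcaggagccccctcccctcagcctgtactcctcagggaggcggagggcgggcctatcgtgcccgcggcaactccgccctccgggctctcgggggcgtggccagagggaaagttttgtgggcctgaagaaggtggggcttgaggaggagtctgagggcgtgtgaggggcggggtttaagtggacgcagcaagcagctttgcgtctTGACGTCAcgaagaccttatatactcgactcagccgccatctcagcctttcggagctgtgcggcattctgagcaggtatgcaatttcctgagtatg
Capitals mark a motif match, here the cyclic AMP response element TGACGTCA. Motifs were searched on both strands of all 32851 promoters of the table. They were the octamer ATGCAAAT (held by 1.74% of promoters), the ESRRB motif TCAAGGTCA (0.423%), the KLF motif CCACACCC (3.56%), the E box CACGTG (7.15%), the cyclic AMP response element (1.79%) and the STAT motif TTCNNNGAA (8.30%). Gas5 held the only 2 matches among the 7 promoters of these RNAs, the element shown, 46 bases before the second start, and a KLF match 63 bases before the first start. The promoters of Lncenc1 and 1110002J07Rik held 42.3% and 47.7% G and C, against a median of 52.7% over all promoters, and that of Tug1 held 71.3%.

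Lncenc1 was the most abundant of the 8 RNAs per length and Snhg3 was at the floor of detection. In WT ESCs the level per kilobase of annotated exon was 2111 ± 81.5 normalized counts for Lncenc1 (SD, n = 3), 729 ± 22.6 for Gas5, 277 ± 72.5 for Malat1, 185 ± 9.41 for Tug1 and 169 ± 6.59 for 1110002J07Rik. It was 30.6 ± 2.73 for 0610043K17Rik and 29 ± 1.56 for Neat1, whose libraries overlapped. Among the 1199 long noncoding RNA genes tested, Lncenc1 ranked 4th per kilobase in every group but WT T48, where it ranked 7th. The place of Neat1 in this order depends on its length: with the short isoform as its length, an alternative added after the data were seen, it stood at 201 ± 10.8 per kilobase in WT ESCs, with libraries that overlapped those of Tug1. The order of the other members was the same with the longest transcript as the length.

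**Figure D1:**
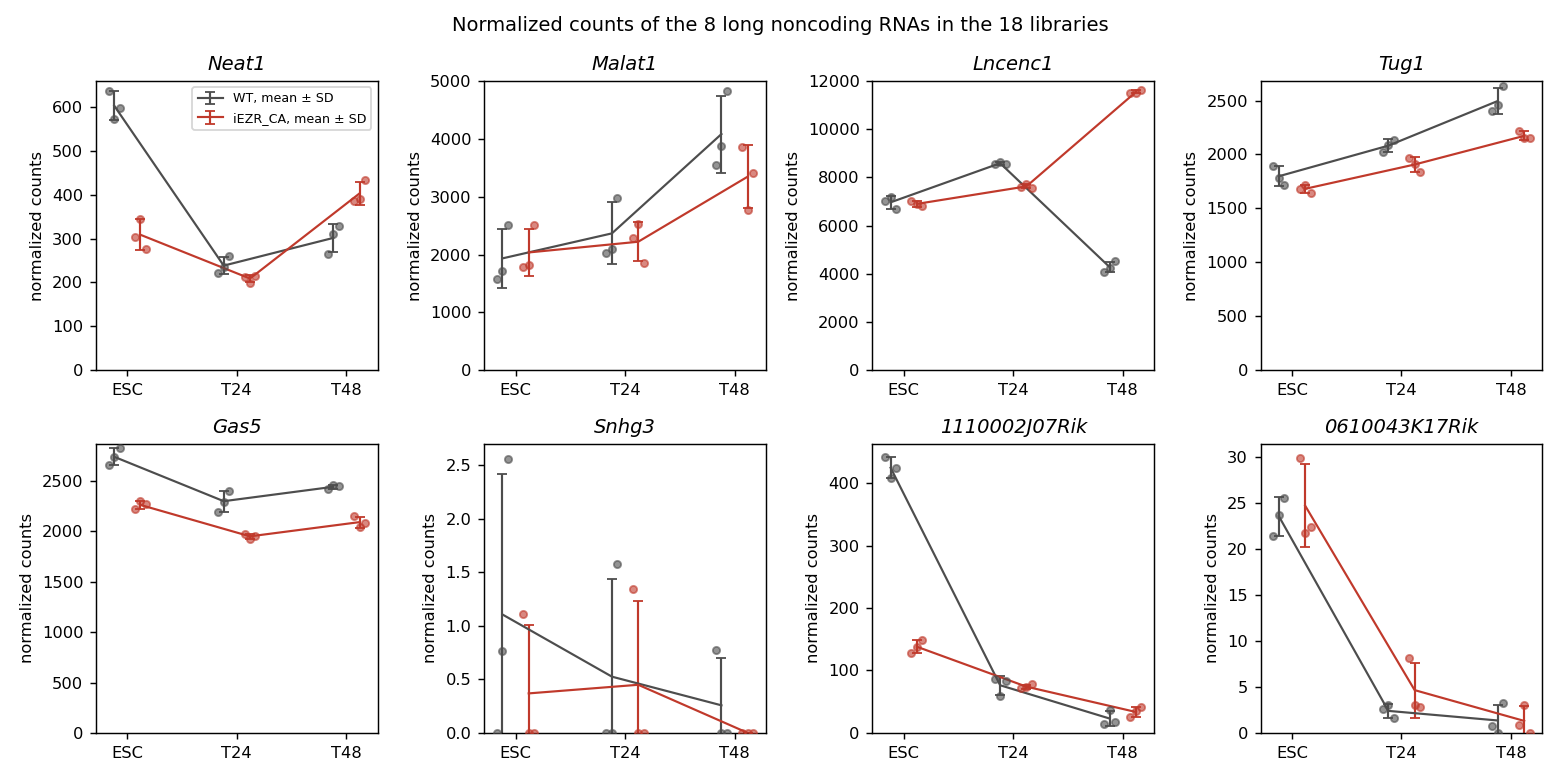
Normalized counts (y axis, linear and starting at 0, with a scale of its own in each panel) of the 8 RNAs at ESC, T24 and T48 (x axis). Points are single libraries, lines join group means and bars are ± 1 SD (n = 3, cut at 0 where they would go below); WT is grey and iEZR_CA red, the T48 libraries of Neat1 and Lncenc1 lay higher in iEZR_CA cells without overlap, and Snhg3 stayed at or below 2.55 in every library.

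Neat1 (ENSMUSG00000092274, chr19:5824708-5845478, minus strand, a single exon) was the nuclear-body RNA that separated the lines. It had 573, 599 and 637 normalized counts in the WT ESC libraries and 276, 305 and 346 in those of iEZR_CA ESCs. The groups did not overlap, and the iEZR_CA level was 0.51 times that of WT cells, a log2 difference of -0.95 ± 0.073 (standard error) with an adjusted p of 4.8e-18 in edgeR. At T24 the WT libraries lay at 221, 234 and 260 and the iEZR_CA libraries at 200, 213 and 214. These groups lay side by side without overlap, but the difference, -0.17 on the log2 scale, did not pass the test (95% interval -0.37 to 0.03, adjusted p = 0.107 by edgeR). At T48 the order was turned: the WT libraries had 266, 310 and 329 and the iEZR_CA libraries 385, 390 and 434, a log2 difference of 0.42 ± 0.078 (standard error) with an adjusted p of 3.01e-06 in edgeR. In WT cells Neat1 fell by 1.37 at T24 and by 1.02 at T48, both against ESCs on the log2 scale. In iEZR_CA cells it fell by 0.59 at T24 and stood 0.35 above its ESC level at T48 (adjusted p = 5.86e-05 by edgeR). The response to exit, given with its standard error, differed between the lines at both times, with an interaction of 0.78 ± 0.12 at T24 (adjusted p = 1.3e-07) and of 1.37 ± 0.11 by T48 (adjusted p = 1.19e-17, edgeR). The 70 tested genes within 1 Mb of Neat1 with a mean of at least 50 normalized counts had a median log2 difference between the lines of -0.10 in ESCs and -0.02 at T48. The 3 small RNAs annotated inside its exon had a count of 0, and its nearest neighbour with any count, Frmd8os, lies 145 bases away with 28 counts over all libraries.

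Malat1 (ENSMUSG00000092341, chr19:5795690-5802672, minus strand, a single exon), which lies 22036 bases from Neat1, rose by T48 in both lines and did not separate them. It had 1572, 1721 and 2514 normalized counts in WT ESCs, 2027, 2092 and 2989 at T24 and 3556, 3874 and 4836 at T48. In iEZR_CA cells the values were 1793, 1816 and 2507 in ESCs, 1863, 2284 and 2526 at T24 and 2778, 3413 and 3863 at T48. The T48 libraries lay above all ESC libraries of their line, and the T24 libraries overlapped with them. The T24 change in WT cells was 0.24 on the log2 scale and did not pass the test (adjusted p = 0.392), but it was 0.42 and passed with spike-in scaling (adjusted p = 0.0033 by edgeR). Against ESCs the log2 fold change at T48 was 1.06 in WT cells (standard error 0.22, adjusted p = 0.000697) and 0.73 in iEZR_CA cells (standard error 0.23, adjusted p = 0.0113 by edgeR). The call in iEZR_CA cells was lost without iEZR_CA ESC replicate 2 (adjusted p = 0.0513) or without iEZR_CA T48 replicate 1 (adjusted p = 0.0524 by edgeR), with 0.60 to 0.89 on the log2 scale over all libraries left out. Between the lines the differences were 0.04 in ESCs (95% interval -0.47 to 0.56), -0.05 at T24 (-0.56 to 0.45) and -0.29 at T48 (-0.75 to 0.17), and none passed the test.

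Malat1 varied far more between replicates than genes of its abundance. Its coefficient of variation was 15.1% to 26.2% within groups, with a mean of 19.4%, whereas the median was 2.89% over the 4120 tested genes with a mean of 1000 to 5000 normalized counts, of which 4 varied more. Tug1 and Gas5, in the same range of abundance, had mean coefficients of 3.40% and 2.34%. In 4 of the 6 groups the library with the most Malat1 was also the one with the largest share of reads outside annotated genes, the exceptions being iEZR_CA ESCs and iEZR_CA T24 cells. In WT T48 cells the libraries of 3556, 3874 and 4836 normalized counts had 3.71%, 3.97% and 4.33% of reads in no gene. Over the 18 libraries the deviations of Malat1 from its group means correlated with those of this share (Pearson's r = 0.727, n = 18, from the same libraries, given as a description), and 0.687% of 12801 genes had a higher r. The same r was 0.615 for both Tug1 and Gas5, 0.481 for Neat1 and 0.473 for Lncenc1. The part of this share in the level of Malat1 was not tested. The share was also higher in iEZR_CA libraries, at 4.06% to 4.62%, than in most WT libraries, at 3.54% to 4.33%.

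**Figure D2:**
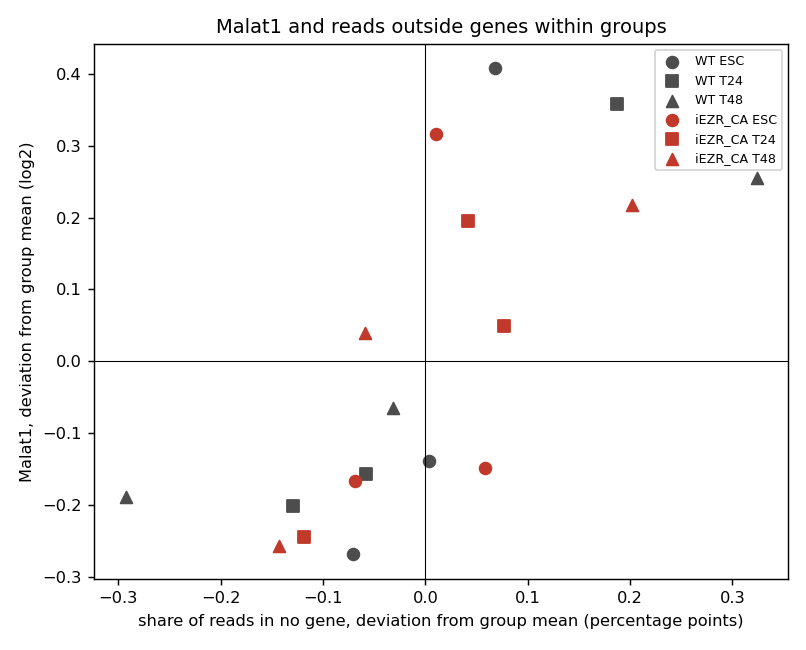
Deviation of Malat1 from the mean of its group (y axis, log2 of normalized counts) against the deviation of the share of reads in no annotated gene (x axis, percentage points) in the 18 libraries. Colours are lines and symbols are stages; libraries with a higher share tended to hold more Malat1 (r = 0.727 within groups).

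Lncenc1 (ENSMUSG00000078952, chr13:97434970-97497007, plus strand, 6 exon blocks), named for its abundance in ESCs, had overlapping levels in both lines before exit and took opposite courses by T48. In ESCs the libraries had 6676, 7027 and 7205 normalized counts in WT cells and 6804, 6884 and 7025 in iEZR_CA cells, which overlapped (log2 fold change -0.02, 95% interval -0.08 to 0.04, adjusted p = 0.569 by edgeR). At T24 both lines were higher, at 8555, 8566 and 8660 in WT cells and 7557, 7623 and 7716 in iEZR_CA cells. At T48 the WT libraries had 4084, 4231 and 4521 and the iEZR_CA libraries 11512, 11517 and 11626, a ratio of means of 2.70. The iEZR_CA libraries at T48 were thus above, and the WT libraries below, every other library of the series. Between the lines the fitted log2 difference was -0.17 at T24 (adjusted p = 3.07e-07, standard error 0.028) and reached 1.44 by T48 (adjusted p = 1.04e-49, standard error 0.029, edgeR). With spike-in scaling the T24 difference was -0.10 and did not pass (adjusted p = 0.582), and that at T48 was 1.49. From ESC to T48 Lncenc1 fell by 0.72 in WT cells and rose by 0.74 in iEZR_CA cells on the log2 scale. The interaction was -0.15 ± 0.040 at T24 (adjusted p = 0.00174) but 1.46 ± 0.041 by T48 (adjusted p = 3.72e-41, edgeR). The small interaction at T24 was lost without a filter on low counts (-0.12, adjusted p = 0.103) and with spike-in scaling (-0.13, adjusted p = 0.757 by edgeR).

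Of the annotated genes next to Lncenc1, Gm8756 and Gm2379 were also higher in iEZR_CA cells at T48, and Gm33447, with 16 counts over all libraries, was not tested. Gm8756, a processed pseudogene on the opposite strand within an intron of Lncenc1, had 71.5 ± 10.6 normalized counts in WT and 245 ± 28.0 in iEZR_CA T48 cells (SD, n = 3), a log2 difference of 1.81 ± 0.12 (standard error) with an adjusted p of 7.93e-22 in edgeR. Gm2379, a long intergenic noncoding RNA that starts 14197 bases downstream on the same strand, had 76.5 ± 9.58 and 278 ± 19.6, a log2 difference of 1.89 ± 0.13 (standard error) with an adjusted p of 4.34e-20 in edgeR. At the other stages Gm2379 was higher in iEZR_CA ESCs (0.94, adjusted p = 3.54e-05) and did not pass the test at T24 (0.07, adjusted p = 0.661), whereas Gm8756 did not pass it in ESCs (-0.41, adjusted p = 0.108) and was lower at T24 (-0.89, adjusted p = 1.71e-09 by edgeR). Unlike Lncenc1, both lay above their ESC level at T48 in WT cells too, by 0.99 and 1.07 on the log2 scale. The 16 tested genes within 1 Mb of Lncenc1 with a mean of at least 50 normalized counts had a median difference of -0.01 between the lines at T48. Whether reads of these small genes come from unspliced or longer Lncenc1 transcripts was not tested, and the strand setting of the counting is not given in the sources used here.

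1110002J07Rik (ENSMUSG00000097134, chr10:66912489-66920258, minus strand, 5 exon blocks) was chosen for its levels in ESCs and during exit, which are therefore given without a test. It had 409, 424 and 442 normalized counts in WT ESCs and 128, 137 and 148 in iEZR_CA ESCs, a ratio of means of 0.325. In WT cells the libraries had 58.5, 83.5 and 86.9 at T24 and 14.7, 18 and 36.3 at T48. In iEZR_CA cells they had 71.5, 72.9 and 77.8 at T24 and 25.1, 34.6 and 40.8 at T48. The ESC libraries of each line lay above all its later libraries, and the fitted change from ESC to T48 was -4.42 in WT and -2.07 in iEZR_CA cells on the log2 scale. The choice also used the libraries after exit, so the lines are compared there without a test: at T24 the groups overlapped, with a fitted log2 difference of -0.05. At T48 iEZR_CA cells had the higher mean, 33.5 ± 7.90 against 23.0 ± 11.7 (SD, n = 3), with a fitted log2 difference of 0.73. The T48 groups overlapped through WT replicate 2, the library at 36.3, and the difference was 0.47 without WT T48 replicate 1 and 1.01 without WT T48 replicate 2. No annotated gene overlaps 1110002J07Rik. The 5 tested genes within 1 Mb with a mean of at least 50 normalized counts had a median log2 difference between the lines of -0.349 in ESCs, -0.415 at T24 and -0.252 at T48. Over the tested genes of its chromosome with such a mean the medians were -0.025, -0.010 and 0.029. The next 2 genes named lie below that mean. Gm26576 starts 44 bases from 1110002J07Rik on the opposite strand and had 16.3 ± 6.63 normalized counts in WT and 20.3 ± 1.88 in iEZR_CA ESCs (adjusted p = 0.328 by edgeR). Gm47903, 20877 bases away on the same strand, had 13.1 ± 1.70 and 3.43 ± 1.53 in the same groups, and no more than 2.70 in any library after exit, so that the filter kept it for its level in WT ESCs and no test is given.

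0610043K17Rik (ENSMUSG00000087361, chr4:101353783-101399181, plus strand) was a rare RNA of ESCs of both lines. Its raw counts were 19, 31 and 30 in WT ESCs and 27, 26 and 16 in iEZR_CA ESCs, or 23.5 ± 2.10 and 24.7 ± 4.52 normalized counts (SD, n = 3). After exit no library had more than 6 counts, with 4, 3 and 1 in WT T24, 1, 0 and 4 in WT T48, 6, 4 and 3 in iEZR_CA T24 and 1, 4 and 0 in iEZR_CA T48 libraries. It passed the filter on low counts only through its ESC groups, so its lower level after exit is given as counts and supports nothing further. In ESCs the lines did not differ detectably at this depth (adjusted p = 0.913 by edgeR), and no test between the lines is given after exit.

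Tug1 (ENSMUSG00000056579, chr11:3639785-3649673, minus strand), a widely expressed long noncoding RNA found in nucleus and cytoplasm, rose with time in both lines and was slightly lower in iEZR_CA cells. The WT libraries had 1715, 1783 and 1896 normalized counts in ESCs, 2019, 2090 and 2136 at T24 and 2402, 2455 and 2631 at T48. The iEZR_CA libraries had 1645, 1678 and 1721 in ESCs, 1836, 1914 and 1971 at T24 and 2149, 2149 and 2219 at T48. From ESC to T48 it rose by 0.46 in WT cells and 0.37 in iEZR_CA cells on the log2 scale (standard errors 0.038 and 0.039), and the interaction did not pass the test (-0.10, 95% interval -0.22 to 0.02). It passed, narrowly, with at least 10 counts required in every library (-0.13, adjusted p = 0.0479), without WT ESC replicate 1 (-0.13, adjusted p = 0.0488) and without WT T48 replicate 1 (-0.14, adjusted p = 0.0363 by edgeR). The log2 fold change between the lines was -0.10 in ESCs (adjusted p = 0.0288), where the groups overlapped, and, where they did not, -0.12 at T24 (adjusted p = 0.00403) or -0.20 by T48 (adjusted p = 4.36e-06, edgeR). With spike-in scaling the T24 and T48 differences were -0.05 and -0.15 and did not pass (adjusted p = 0.792 and 0.393). The call in ESCs was lost in DESeq2's Wald test (adjusted p = 0.113), with spike-in scaling (0.833), with at least 10 counts required in every library (0.0581), in a fit of only the groups compared (0.0699) and without any 1 of WT ESC replicate 1, WT T48 replicate 2 or iEZR_CA ESC replicates 1 and 3 (adjusted p = 0.0521 to 0.191 by edgeR). Of its 9734 exon bases, 483 overlap exons of Morc2a on the opposite strand, a gene with 74527 counts in all that also rose to T48 in both lines and was lower in iEZR_CA cells at T24 and T48 (-0.26 and -0.22). How far reads were shared between these genes was not tested.

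Gas5 (ENSMUSG00000053332, chr1:161034422-161038539, plus strand), a spliced snoRNA host whose own transcript is known to be removed by nonsense-mediated decay, was lower in iEZR_CA cells at every stage, though not past the test with spike-in scaling. The WT libraries had 2655, 2742 and 2824 normalized counts in ESCs, 2197, 2296 and 2405 at T24 and 2418, 2447 and 2463 at T48. The iEZR_CA libraries had 2219, 2269 and 2299 in ESCs, 1927, 1955 and 1971 at T24 and 2043, 2084 and 2150 at T48. The groups of the lines did not overlap at any stage, and the log2 differences with their standard errors were -0.28 ± 0.034 in ESCs (adjusted p = 6.17e-11), -0.23 ± 0.035 for T24 (adjusted p = 4.56e-08) and -0.22 ± 0.035 for T48 (adjusted p = 1.39e-07, edgeR). Against ESCs Gas5 fell by 0.27 at T24 and by 0.18 at T48 in WT cells, and by 0.22 and 0.12 in iEZR_CA cells, and the interactions did not pass the test. With libraries scaled to their spike-in RNA, the differences between the lines were -0.23, -0.16 and -0.17 (adjusted p = 0.178, 0.328 and 0.312 by edgeR), and the T24 changes were -0.13 in WT and -0.07 in iEZR_CA cells (adjusted p = 0.419 and 0.736), none of which passed. The direction at T48 depended on this scaling: it moved the median change of all genes at T48 to 0.27 in WT and 0.26 in iEZR_CA cells, and Gas5 stood at 0.08 and 0.14, below that median. The 10 snoRNA genes annotated within Gas5 all had a count of 0.

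Snhg3 (ENSMUSG00000085241, chr4:132348014-132353686, minus strand), the other snoRNA host, was at the floor of detection in all groups. It had 8 counts over the 18 libraries and no more than 3 in any library, so no fold change is given. Its exons share 135 bases with those of Rcc1 on the same strand, which had 85372 counts in all, and 705 bases with those of Gm17300 on the opposite strand, which had 687. Of its 986 exon bases, 851 are overlapped by another gene, and reads in overlapped bases can have been left out as ambiguous, so a count near 0 does not show that the RNA was absent.

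Leaving out 1110002J07Rik, chosen for its levels, and 0610043K17Rik, which the filter kept for its ESC level, 5 tested RNAs remain, of which 3 were lower and the others did not pass the test in iEZR_CA against WT ESCs, where 26.4% of 18469 genes were called higher and 28.1% lower. At T24 the number of falls was again 3, where 30.8% of genes were called higher and 30.1% lower. At T48, 2 were higher and 2 lower, and 31.0% and 30.1% of genes were called. For T24 against ESCs, 2 were higher and 2 lower in WT cells, beside 31.8% and 33.6% of genes, and the counts were also 2 and 2 in iEZR_CA cells, beside 27.1% and 28.9%. For T48 against ESCs, 2 were higher and 3 lower in WT cells, beside 37.1% and 37.4% of genes, and 4 were higher and 1 lower in iEZR_CA cells, beside 35.2% and 35.0%. The interaction was called for 1 higher and 1 lower at T24, beside 21.5% and 16.9% of genes, and for 2 higher at T48, beside 25.7% and 20.0%. With 5 RNAs these shares say little about the members as a set, and both lines' exit comparisons and the line comparisons share libraries. Their median log2 fold change between the lines was -0.10 in ESCs, -0.17 at T24 and -0.20 at T48, beside -0.01, 0.00 and 0.00 over all genes tested. With spike-in scaling the differences of Tug1 and Gas5 between the lines and that of Lncenc1 at T24 no longer passed the test, whereas those of Neat1 in ESCs and at T48 and of Lncenc1 at T48 did. For WT T24 against ESCs the counts became 3 higher and 1 lower, and for WT T48 2 and 2. In iEZR_CA cells they became 1 and 1 for T24 and 4 and 0 for T48, and for the interaction at T24 1 and 0. Of all 18469 genes, edgeR with this scaling called, higher or lower, 8632 for WT T24 and 11960 for WT T48. It called 6593 and 10845 for iEZR_CA T24 and T48 and 2416 for the interaction at T24. Between the lines it called 5506 in ESCs, 7129 at T24 and 7229 at T48.

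**Figure D3:**
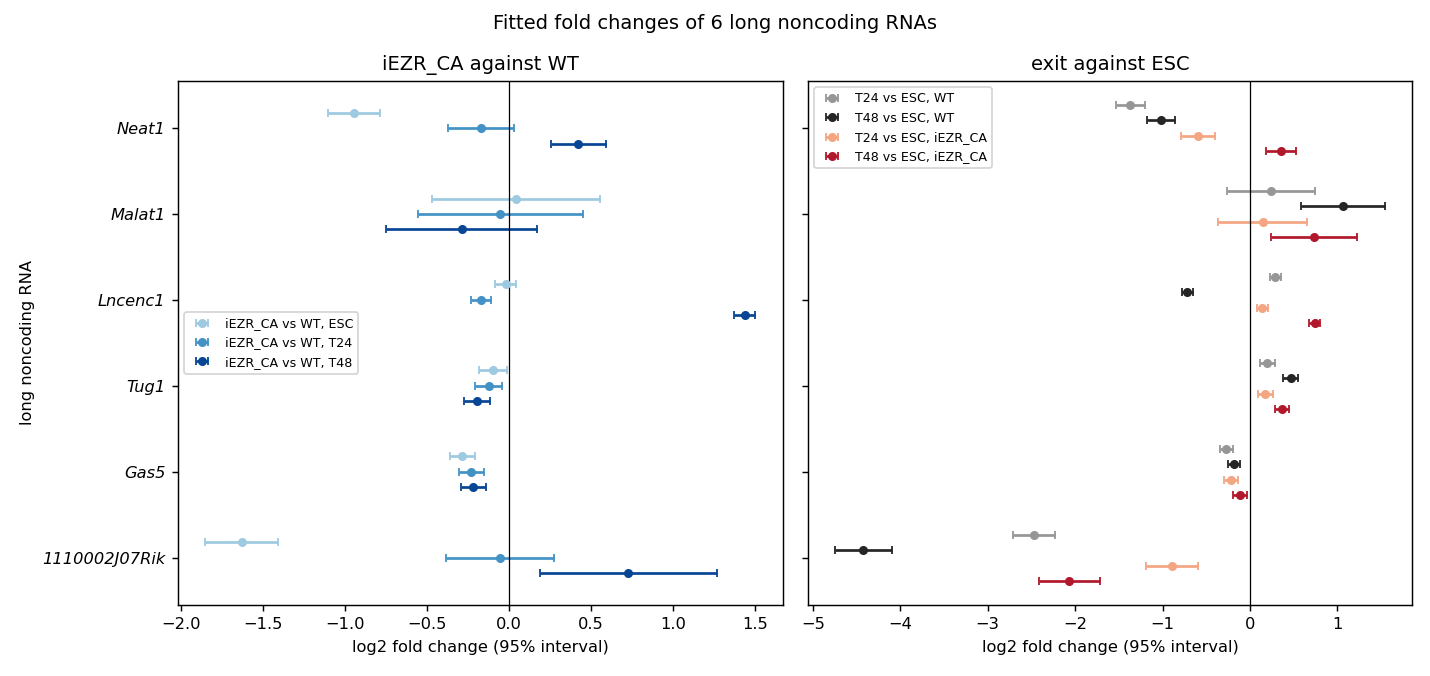
Fitted log2 fold changes (x axis) of 6 RNAs (y axis), of iEZR_CA against WT cells at 3 stages (left) and of T24 and T48 against ESCs in each line (right). Points are edgeR estimates and bars 95% intervals from 18 libraries; Lncenc1 at T48 and Neat1 in ESCs lie far from 0, Malat1 has the widest bars of the abundant RNAs, and the values of 1110002J07Rik in ESCs and during exit are those it was chosen for. The points of Gas5 at T48 against ESCs turn to the other side of 0 with spike-in scaling.

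Genes that encode proteins of the nuclear bodies were examined beside Neat1 and Malat1. All levels given for them are of RNA, not of protein. Of 16 genes of paraspeckle proteins, 5 rose and 5 fell in iEZR_CA against WT ESCs, with a median log2 fold change of -0.03. Neat1 was there at 0.51 times its WT level. Of all genes, 26.4% were called higher and 28.1% lower there, and with spike-in scaling the counts were 2 and 1. The list had 4 rises against 10 falls for T24 (median -0.08) and 4 against 8 for T48 (median -0.09). Beside these, 30.8% of all genes were called higher and 30.1% lower at T24, and 31.0% and 30.1% at T48. With spike-in scaling the list had 4 rises against 1 fall for T24 and 2 against 2 for T48. Of all 18469 genes, this scaling left 5506 called in ESCs, 7129 at T24 and 7229 at T48, higher or lower. Taf15, an RNA-binding protein, was higher in iEZR_CA ESCs (log2 fold change 0.49, adjusted p = 7.04e-23 by edgeR). Pspc1, a core paraspeckle protein, had 2319 ± 63.9 normalized counts in WT and 1417 ± 47.7 in iEZR_CA ESCs (SD, n = 3), and its log2 fold change was -0.72 in ESCs, -0.87 at T24 and -1.07 at T48 (adjusted p = 8.97e-38 at T48 by edgeR). Pspc1 was thus lower at T48 as well, where Neat1 was higher. Of 16 genes of nuclear speckle proteins, 14 were lower in iEZR_CA cells at T24, with a median of -0.19 beside 0.00 over all genes. Of all genes, 30.1% were called lower and 30.8% higher there. Srsf1, which encodes a splicing factor, had the largest fall in the list (-0.36). With spike-in scaling 1 of these 16 was called lower and the median was -0.12. In ESCs 3 were higher and 6 lower (median 0.02) and at T48 1 was higher and 6 lower (median -0.03), and with spike-in scaling edgeR called 0 at these stages, also at an unadjusted p under 0.05, where DESeq2's Wald test with its own scaling called 8 and 6. Malat1 did not differ detectably between the lines at T24.

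Other long noncoding RNAs of early embryonic cells differed between the lines in both directions. Of 24 tested pluripotency-associated transcripts (a list of Platr genes and other RNAs of early embryonic cells), iEZR_CA ESCs had 5 at a higher and 7 at a lower level, or 20.8% and 29.2%, beside 26.4% and 28.1% of all genes and 18.3% and 14.3% of the 1199 long noncoding RNAs. The counts were 4 rises against 13 falls for T24 (median -0.46), and 11 rises against 5 falls for T48 (median 0.52), so that 16.7% rose and 54.2% fell at T24 and 45.8% rose and 20.8% fell at T48. Beside these, 30.8% and 30.1% of all genes and 15.8% and 22.9% of the long noncoding RNAs were called at T24, and 31.0% and 30.1% of all genes and 23.9% and 17% of the long noncoding RNAs at T48. With spike-in scaling the counts of the list were 2 and 6 in ESCs, 3 and 11 at T24 and 11 and 5 at T48. Of all 18469 genes, 5506, 7129 and 7229 were called at these stages with this scaling, higher or lower. Most of the list was not highest in ESCs. Without this scaling, 17 of the 24 were called higher and 4 lower at T24 against ESCs in WT cells, beside 31.8% and 33.6% of all genes. At T48 against ESCs the counts were 13 and 7, beside 37.1% and 37.4%. Platr7 had 171 ± 8.76 normalized counts in WT and 680 ± 61.7 in iEZR_CA T48 cells, a log2 fold change of 2.00 (adjusted p = 8.76e-34 by edgeR) that is the same direction as for Lncenc1. Tunar, a neural and ESC transcript, had 345 ± 34.4 in WT and 73.0 ± 4.90 in iEZR_CA ESCs, and 88.1 ± 7.15 and 69.1 ± 7.38 at T24 (SD, n = 3). Platr14 had the opposite difference in ESCs, 671 ± 7.83 in WT and 1329 ± 101 in iEZR_CA cells, and Miat was at 359 ± 30.6 in WT and 29.9 ± 4.06 in iEZR_CA cells at T48. Of 14 tested snoRNA host genes other than the members, iEZR_CA ESCs had 2 at a higher and 5 at a lower level, with 2 rises against 7 falls for T24 and 5 against 4 for T48. With spike-in scaling these counts of the hosts were 1 and 0 in ESCs, 0 and 2 for T24 and 2 and 2 for T48, beside the calls over all genes given above for this scaling. Zfas1, a host like Gas5, was lower in iEZR_CA ESCs (-0.32, adjusted p = 1.46e-06) but higher at T48 (0.19, adjusted p = 0.00476 by edgeR), where Gas5 was lower. The fall of Zfas1 in ESCs, like that of Gas5, was not called with spike-in scaling.

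**Figure D4:**
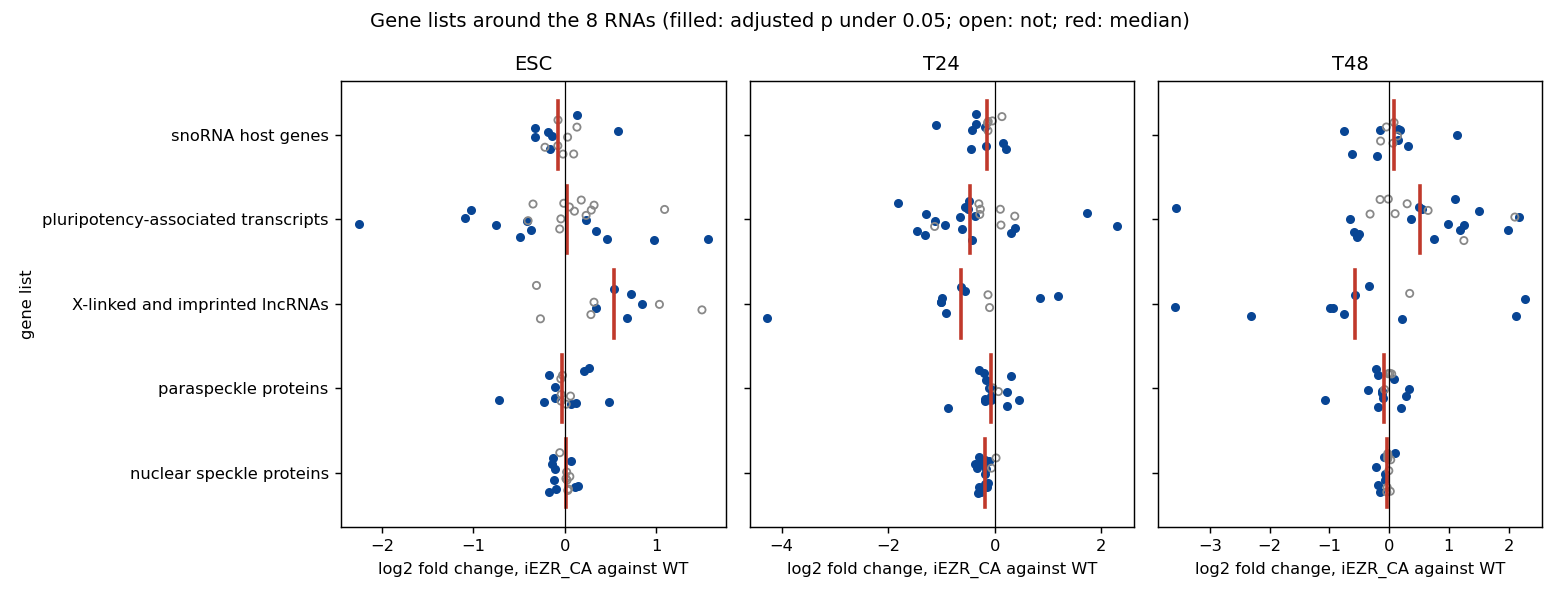
Difference between the lines on the log2 scale (x axis, above 0 where iEZR_CA cells were higher) for the tested genes of 5 lists (y axis) at ESC, T24 and T48. Each point is a gene, filled where its adjusted p is under 0.05, and the red line is the median of the list, which for the pluripotency-associated transcripts lies at -0.46 at T24 and 0.52 at T48 and for the nuclear speckle proteins at -0.19 at T24 (-0.12 with spike-in scaling).

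The genes most like each RNA over the 18 libraries were found by Pearson's r of log2(normalized count + 1) among 12800 genes with a mean of at least 50, given as a description since the libraries share their groups. Neat1 was most like Stra8 (r = 0.92), a germ cell gene that had 1329 ± 150 normalized counts in WT and 220 ± 31.7 in iEZR_CA ESCs, followed by Vps26c and 2410006H16Rik (0.87 and 0.86). Lncenc1 was most like Slc25a15 (r = 0.96), a mitochondrial ornithine carrier, which had 1023 ± 52.7 in WT and 1615 ± 17.6 in iEZR_CA T48 cells, followed by St3gal3 and Slc25a12 (0.94 and 0.93). No such genes are named for 1110002J07Rik, whose course it was chosen for, or for 0610043K17Rik, which the filter kept for its ESC level. Tug1 was most like Jakmip2, Zfp644 and Pak3 (0.98 each), Gas5 like Pacsin1 (0.96), Hyal2 and Igf2bp3 (0.95 each) and Malat1 like Scand1, Tmem206 (0.91 each) and Huwe1 (0.90). Among the members themselves, Malat1 and Tug1 reached 0.80, no value is given for 1110002J07Rik with 0610043K17Rik because the choice and the filter fixed their shared course, and Lncenc1 was like none of the others (-0.46 to 0.10).

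The labelled cell type was checked by its markers. The 7 ESC markers, such as Nanog, Zfp42 and Esrrb, summed to 123900 normalized counts in WT and 112600 in iEZR_CA ESCs, to 50530 and 67790 at T24 and to 17590 and 25210 at T48, on average over 3 libraries. Of the 7, edgeR called 0 higher and 5 lower in iEZR_CA than in WT ESCs, beside 26.4% and 28.1% of all genes. It called 6 higher and 1 lower at both T24 and T48. Of all genes, 30.8% were called higher and 30.1% lower at T24, and 31.0% and 30.1% at T48. Pou5f1, the most abundant of the 7 at T48, had means of 13130 in WT and 10870 in iEZR_CA cells, the other way from the sum. The 5 fibroblast markers summed to 41.2 in WT and 45.9 in iEZR_CA ESCs, with Dcn at 0 in both, and the 4 trophoblast markers to 60.4 and 156, mostly Krt8. The trophoblast sums were 44.1 (40.6 to 47.3) in WT and 247 (239 to 255) in iEZR_CA cells at T24, of which Krt8 made 36.3 and 237, and 180 and 111 at T48. The fibroblast markers summed to 605 in WT and 384 in iEZR_CA cells at T48, with Dcn the most abundant at 227 and 331 and Postn at 0 in both. The 4 neural markers summed to 2587 in WT and 1118 in iEZR_CA ESCs, of which Tubb3, which is not confined to neurons, made 2389 and 984. They summed to 1324 and 1612 at T24 and to 2036 and 921 at T48. The mean sums of the primitive endoderm, mesoderm and 2-cell-like markers were no higher than 175, 55.2 and 104 in any group. The part of cells of other types in the levels of these RNAs was not tested.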

How the data were processed

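The values deposited are whole counts of reads per gene, not normalized. The authors trimmed paired-end reads of poly(A) RNA with Trim Galore 0.6.5, aligned them with GSNAP to GRCm38 and used HTSeq with the annotation of Ensembl release 81. Counting drops reads that fit several places or genes, and its strand setting is not given in the sources used here. Reads in no gene made 3.54% to 4.62% of a library, ambiguous reads 4.51% to 4.76% and spike-ins 0.575% to 0.884%. Low-quality reads made 0.519% to 0.612% of WT libraries and 0.889% to 1.02% of iEZR_CA libraries. The lines did not overlap in this share, and its part in their differences was not tested. These entries stayed out of library sizes.

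Of 53801 genes, 18469 passed filterByExpr. Tests used edgeR 4.0.16 under R 4.3.3 (TMM, robust quasi-likelihood test, 6 groups, 12 residual degrees of freedom, Benjamini-Hochberg). Normalized counts used DESeq2 1.42.0 size factors. Groups came from the sample labels, which do not number replicates; replicates are numbered in accession order. Standard errors are the fold change divided by the square root of F. The floor of detection was 3 counts per library. The test was checked on simulated data. Exon lengths, overlaps and coordinates came from GENCODE M21 and promoters from RefSeq.

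The members and gene lists were chosen with earlier results of these data known. Named were all 8 members, the genes that overlap or flank them, up to 2 rises and 2 falls per list (mean of at least 50 normalized counts) and the 3 genes most like each member; some are not reported here. Alternatives were DESeq2 scaling and Wald test, spike-in scaling, other filters, fewer groups, other lengths and leaving out each library.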

Additional observations from a re-analysis of the deposited data

Results flagged for a closer look

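The response of Neat1 to exit differed between the lines, as tested by edgeR's interaction term: the change from ESC to T24 was 0.78 higher in iEZR_CA than in WT cells on the log2 scale (adjusted p = 1.3e-07), and that from ESC to T48 was 1.37 higher (adjusted p = 1.19e-17). Lncenc1 also differed, by -0.15 at T24 (adjusted p = 0.00174) and by 1.46 at T48 (adjusted p = 3.72e-41 by edgeR). Its T24 call was lost with spike-in scaling (-0.13, adjusted p = 0.757 by edgeR) and without a filter on low counts. The interactions use the ESC libraries of both lines, so that of Neat1 holds its difference in ESCs, whereas Lncenc1 had similar levels there.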

How the results depend on the processing

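No paired analysis was run, because the labels carry no replicate numbers and do not say which libraries share a culture. In accession order, Malat1 was lowest in replicate 1 and highest in replicate 3 of WT cells at every stage. The iEZR_CA libraries did not keep this order. The WT T24 change of Malat1 was thus tested only without pairing. Scaling libraries to their spike-in RNA moved counts most. Genes called fell from 10058 to 5506 between the lines in ESCs, from 11253 to 7129 at T24, from 11282 to 7229 at T48, from 10340 to 6593 for iEZR_CA T24 against ESCs, and from 7081 to 2416 and 8452 to 3881 for the interactions at T24 and T48. Of the 6 tested RNAs other than 1110002J07Rik, edgeR called 1 in place of 3 between the lines in ESCs, 0 in place of 3 at T24 and 2 in place of 4 at T48, and 3 in place of 5 for iEZR_CA T24 (2 in place of 4 without 0610043K17Rik, which the filter kept for its ESC level) and 1 in place of 2 for the interaction at T24. At T24 0 of the 6 also had an unadjusted p under 0.05 with this scaling (lowest adjusted p = 0.328 by edgeR), and DESeq2's Wald test with its own scaling called 3. Spike-in scaling also turned Lncenc1 between the lines in ESCs to 0.035, 1110002J07Rik at T24 to 0.025 and Gas5 at T48 against ESCs to 0.080 in WT and 0.14 in iEZR_CA cells. Without a filter on low counts, 1 RNA had an interaction at T24, and with at least 10 counts in every library 3 in place of 2 had one at T48. The cause was not tested.

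Leaving out 1 library at a time turned the sign only of small or noisy log2 fold changes. Between the lines these ranged from -0.11 to 0.28 (Malat1), -0.051 to 0.0042 (Lncenc1) and -0.11 to 0.15 (0610043K17Rik) in ESCs, -0.17 to 0.12 (Malat1) and -0.21 to 0.12 (1110002J07Rik) at T24, and -1.53 to 1.27 (0610043K17Rik) at T48. The interactions ranged from -0.32 to 0.075 (Malat1) and -0.058 to 0.011 (Tug1) at T24 and from -1.57 to 1.22 (0610043K17Rik) at T48. With DESeq2 size factors all 63 member results kept their direction and side of the threshold. Depth limits 0610043K17Rik, with no more than 6 counts in any library after exit. The part of depth in the low counts of Snhg3 was not tested.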

Other observations

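Imprinted and X-linked long noncoding RNAs also differed between the lines. Of 11 tested, 5 were higher in iEZR_CA ESCs, whereas 7 were lower and 2 higher at T24 and 7 lower and 3 higher at T48 (edgeR, adjusted p under 0.05), where 26.4%, 30.8% and 31.0% of all genes were higher and 28.1%, 30.1% and 30.1% lower at the 3 stages. Rian and Meg3, neighbours in an imprinted cluster, had 3659 ± 80.4 and 1712 ± 94.7 normalized counts (SD, n = 3) in ESCs of the WT line and 5921 ± 144 and 2831 ± 99.3 in iEZR_CA ESCs. At T48 they had 20558 ± 381 and 9352 ± 891 in WT and 10351 ± 240 and 5527 ± 199 in iEZR_CA cells. H19 went the other way at T48, with 443 ± 25.6 in WT and 1899 ± 151 in iEZR_CA cells. Xist had 718 ± 103 in WT and 61.0 ± 9.49 in iEZR_CA cells at T48, and Tsix, its antisense partner, 25.7 ± 6.01 and 115 ± 15.6; reads of these overlapping genes cannot be told apart without strand.

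The deviations of Malat1 within groups were shared by other genes. Kcnq1ot1, another nuclear long noncoding RNA, was the most alike (r = 0.908 over 18 libraries), followed by Hspg2 (0.879), Trrap (0.876) and Kmt2d (0.874), genes that were chosen after their values were seen and are given without a test.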
